A study of Mus musculus with 15 samples.

Results

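The enzymes described here are the glutathione S-transferases (Gst), sulfotransferases (Sult) and UDP-glucuronosyltransferases (Ugt) of the mouse colon. Within these families, members were taken by symbol: protein-coding genes of GENCODE release M21 whose symbol begins with Gst and a class letter (a, k, m, o, p, t or z), with Sult, or with Ugt1a, Ugt1b, Ugt2a or Ugt2b, each followed by a digit. This gave 62 of the 55335 genes measured, namely 22 Gst, 21 Sult and 19 Ugt genes. Of these, 30 had at least 1 FPKM (fragments mapped to a transcript, scaled to its length and to the library) in at least 5 libraries and were tested: 19 Gst, 6 Sult and 5 Ugt genes. Every tested gene had at least 1 FPKM in some library of each group, so none was tested through a single group. Of the other 32 genes, 13 were listed at 0 in all 15 libraries.

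RNA of colon tissue was sequenced from 15 mice in 3 groups of 5. All mice received DSS (dextran sulfate sodium, a polymer usually given in drinking water that injures the colon lining), so no group is an untreated colon. The group DSS had nothing else by its label, DSS_ICB had immune checkpoint blockade in addition, and DSS_ICB_Fp had both and a gavage of Faecalibacterium prausnitzii, a butyrate-producing gut bacterium. By its title, the series asks whether this bacterium lessens the toxicity of immunotherapy. Strain, sex, age, the DSS schedule, the checkpoint antibodies, a control antibody or gavage and cages are not given in the sources used here. An effect of the bacterium therefore cannot be told apart from one of gavage or cage.

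The enzymes of these families attach a water-soluble group to drugs, dietary compounds, bile pigments, hormones and products of oxidation, so that transporters can carry the product out of the cell. Gst enzymes add glutathione, Sult enzymes add sulfate from the donor PAPS, and Ugt enzymes add glucuronic acid from UDP-glucuronate. In the intestine they are made mainly by absorptive epithelial cells and form a barrier to compounds from food and microbes. In bulk tissue, fewer cells of a type and less RNA per cell cannot be told apart.

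Several of these genes are recent copies of each other, which bears on how reads were divided between them. The opening of the coding sequence of the 3 pi-class Gst genes is shown because it separates the copies. These are coding bases 1 to 120 (5′ to 3′) of GENCODE M21 transcripts on GRCm38, with capitals at the 23 positions where the 3 differ.
Gstp1: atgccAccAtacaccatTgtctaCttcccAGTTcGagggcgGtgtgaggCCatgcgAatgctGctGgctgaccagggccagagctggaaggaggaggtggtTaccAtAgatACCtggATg
Gstp2: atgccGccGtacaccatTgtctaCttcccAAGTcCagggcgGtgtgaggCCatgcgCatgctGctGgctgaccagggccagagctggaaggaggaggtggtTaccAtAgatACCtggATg
Gstp3: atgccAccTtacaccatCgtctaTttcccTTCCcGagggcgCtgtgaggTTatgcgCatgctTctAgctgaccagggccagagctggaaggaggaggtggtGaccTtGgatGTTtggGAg
Over these bases Gstp2 differed from Gstp1 at 6 positions and Gstp3 at 21. Over the whole coding sequence of 633 bases, Gstp2 differed from Gstp1 at 12 positions (98.1% identity) and Gstp3 at 180 (71.6% identity). Windows of 50 bases were taken from the transcript of each gene with the longest coding sequence. Of these windows, 62.3% in Gstp1 and 72.6% in Gstp2 also occurred in another gene, while Gstp3 had none. The values of Gstp1 and Gstp2 are therefore uncertain as single genes. The Ugt1a genes are spliced from their own first exons to shared last exons, and the shared windows came to 58.2% in Ugt1a1, 69.3% in Ugt1a7c and 100% in Ugt1a6a. Reads from the shared exons can be assigned to any of them, and the split between Ugt1a genes is likewise uncertain. Shared windows were also found in Gsta1 (89.7%), Gstm1 (33.0%), Gstm3 (28.8%), Gstt3 (26.0%), Gstm6 (11.5%), Gstm2 (9.36%), Sult1a1 (8.23%) and Ugt2b34 (2.07%), in Ugt2b35, Gstt2 and Sult1c2 at under 1%, and 0 were shared in Sult1d1, Sult1b1, Gsto1 and Gsta4.

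The promoters of Sult1a1, Sult1d1, Ugt1a1 and Gsta3 are shown because they are the tested genes that held the HNF1 core, described below, and differed between DSS_ICB_Fp and DSS_ICB at an unadjusted p under 0.05. They were chosen after their values were seen. Each is the 250 bases before the RefSeq transcript start (GRCm38.p6), read 5′ to 3′ on the strand of the gene. The spans are chr7:126676419-126676668, minus strand, for Sult1a1; chr5:87569007-87569256, minus strand, for Sult1d1; chr1:88211709-88211958, plus strand, for Ugt1a1; and chr1:21240335-21240584, plus strand, for Gsta3. Capitals mark the HNF1 core GTTAAT on either strand, the antioxidant response element core TGACNNNGC in Gsta3 and the xenobiotic response element core TNGCGTG, on the reverse strand, in Sult1d1.
Sult1a1: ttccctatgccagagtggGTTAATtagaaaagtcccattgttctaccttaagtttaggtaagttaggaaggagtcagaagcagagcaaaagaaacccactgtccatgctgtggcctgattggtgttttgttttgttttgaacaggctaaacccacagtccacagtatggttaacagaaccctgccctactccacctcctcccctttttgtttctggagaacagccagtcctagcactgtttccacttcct
Sult1d1: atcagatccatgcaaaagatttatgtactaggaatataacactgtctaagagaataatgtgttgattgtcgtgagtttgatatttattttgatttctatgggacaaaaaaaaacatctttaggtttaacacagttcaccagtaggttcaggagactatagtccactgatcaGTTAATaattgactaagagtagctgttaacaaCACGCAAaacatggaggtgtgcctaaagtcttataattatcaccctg
Ugt1a1: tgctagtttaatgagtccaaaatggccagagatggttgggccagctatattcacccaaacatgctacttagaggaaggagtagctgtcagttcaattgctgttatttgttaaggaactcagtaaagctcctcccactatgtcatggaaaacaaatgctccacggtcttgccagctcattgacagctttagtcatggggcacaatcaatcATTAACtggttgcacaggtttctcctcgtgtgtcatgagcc
Gsta3: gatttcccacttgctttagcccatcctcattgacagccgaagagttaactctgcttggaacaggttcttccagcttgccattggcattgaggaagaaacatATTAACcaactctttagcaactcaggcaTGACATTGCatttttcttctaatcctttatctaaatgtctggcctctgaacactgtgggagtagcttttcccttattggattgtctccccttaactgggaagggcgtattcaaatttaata
HNF1 is a transcription factor of intestinal and liver epithelium. Its core letters, searched on both strands, were in 5 of the 36 promoters of tested genes (13.9%), against 6.43% of 32851 promoters in all. They belonged to Gsta3, Sult1a1, Sult1d1, Ugt1a1 and Ugt1a6a, which are 5 of the 27 tested genes with a promoter in the RefSeq table. The antioxidant response element core, which is bound by NRF2, was in 3 promoters (8.3%, of Gsta3, Gstm5 and Gstm7) against 10.2% of all. The xenobiotic response element core, which is bound by the aryl hydrocarbon receptor, was in the Sult1d1 promoter only (2.8%) against 4.1% of all. A further search found AGAACA, a core of glucocorticoid receptor sites, in 9 of 36 promoters (25%) against 16.1% of all, TTTATNG, the CDX2 site, in Gstm6 only (2.8% against 9.81%), and CAAAGTCCA, an HNF4A repeat, in 0 (0.38% of all). These matches are descriptions of letters and were not tested for binding.

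The libraries were estimated to hold 15.45 to 25.11 M (mega) fragments, and each listed between 13243 and 14336 genes at 1 FPKM or more. At the lowest depth, 1 FPKM over a transcript of 1 kilobase is 15.4 fragments. DSS_ICB 3 had a median rank correlation with the other libraries of 0.725, DSS_ICB 5 had 0.864, and the other 13 had at least 0.922. Mitochondrially encoded genes took 33.2% of the summed FPKM in DSS_ICB 3 and 9.39% to 25.8% in the other libraries, and the part of this in the results was not tested. DSS_ICB 3 held the lowest value of 15 for 21 of the 30 tested genes (36.6% of all 14385 tested genes had their lowest value there), and DSS_ICB 5 for 7 of them (4.85% of all). Results that rest on these libraries are therefore given with and without both.

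Across the families, levels were mostly lower in DSS_ICB than in DSS and higher in DSS_ICB_Fp than in DSS_ICB, but 0 of the 30 genes passed the test in any comparison. Without DSS_ICB 3 and DSS_ICB 5, the median log2 change of Gst genes in DSS_ICB against DSS was 0.0013, with 10 of 19 above 0. The test was limma on log2(FPKM + 1), with a Benjamini-Hochberg adjusted p under 0.05 over all 14385 genes. Few genes of any kind passed: 3 in DSS_ICB against DSS (0.0209%), 19 in DSS_ICB_Fp against DSS_ICB (0.132%; 0.00695% higher and 0.125% lower) and 0 in DSS_ICB_Fp against DSS (0%). At an unadjusted p under 0.05, 10 of the 30 were lower in DSS_ICB than in DSS, against 4.22% of all genes tested, and 0 were higher, against 7.08%. At the same threshold 17 of 30 were higher in DSS_ICB_Fp than in DSS_ICB, against 9.34% of all, and 0 were lower, against 12.4%. Between DSS_ICB_Fp and DSS it was 0 of 30 in either direction, against 0.591% of all genes higher and 0.82% lower. The fit pools the spread of all 3 groups, so the wide DSS_ICB group enters the standard error here too. For Gsto1 that error was 0.43 in every comparison, while the SD was 58.1 FPKM for DSS_ICB, 12.3 for DSS and 7.01 for DSS_ICB_Fp. The 0 of 30 therefore cannot show that DSS_ICB_Fp and DSS were alike. Fitting these 2 groups alone also gave 0 genes of any kind at an adjusted p under 0.05.

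The log2 change was below 0 in 27 of 30 genes in DSS_ICB against DSS (47.2% of all genes) and above 0 in 3 (52.8% of all genes), namely Gstt1, Gstz1 and Ugt1a6a. It was above 0 in 29 of 30 in DSS_ICB_Fp against DSS_ICB (44.5% of all), the exception being Gstz1 (55.5% of all were below 0), and in 29 of 30 in DSS_ICB_Fp against DSS (47.1% of all), the exception being Gsta1 (52.9% of all were below 0). These comparisons share libraries, DSS_ICB in the first pair and DSS_ICB_Fp or DSS in the others, so they are not independent of each other. Median log2 changes in DSS_ICB against DSS were -0.44 for Gst, -0.96 for Sult and -1.08 for Ugt genes, beside 0.02 for all genes. In DSS_ICB_Fp against DSS_ICB they were 0.57, 1.11 and 1.69, beside -0.04 for all genes. In DSS_ICB_Fp against DSS they were 0.17, 0.23 and 0.55, beside -0.01 for all genes.

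**Figure D1:**
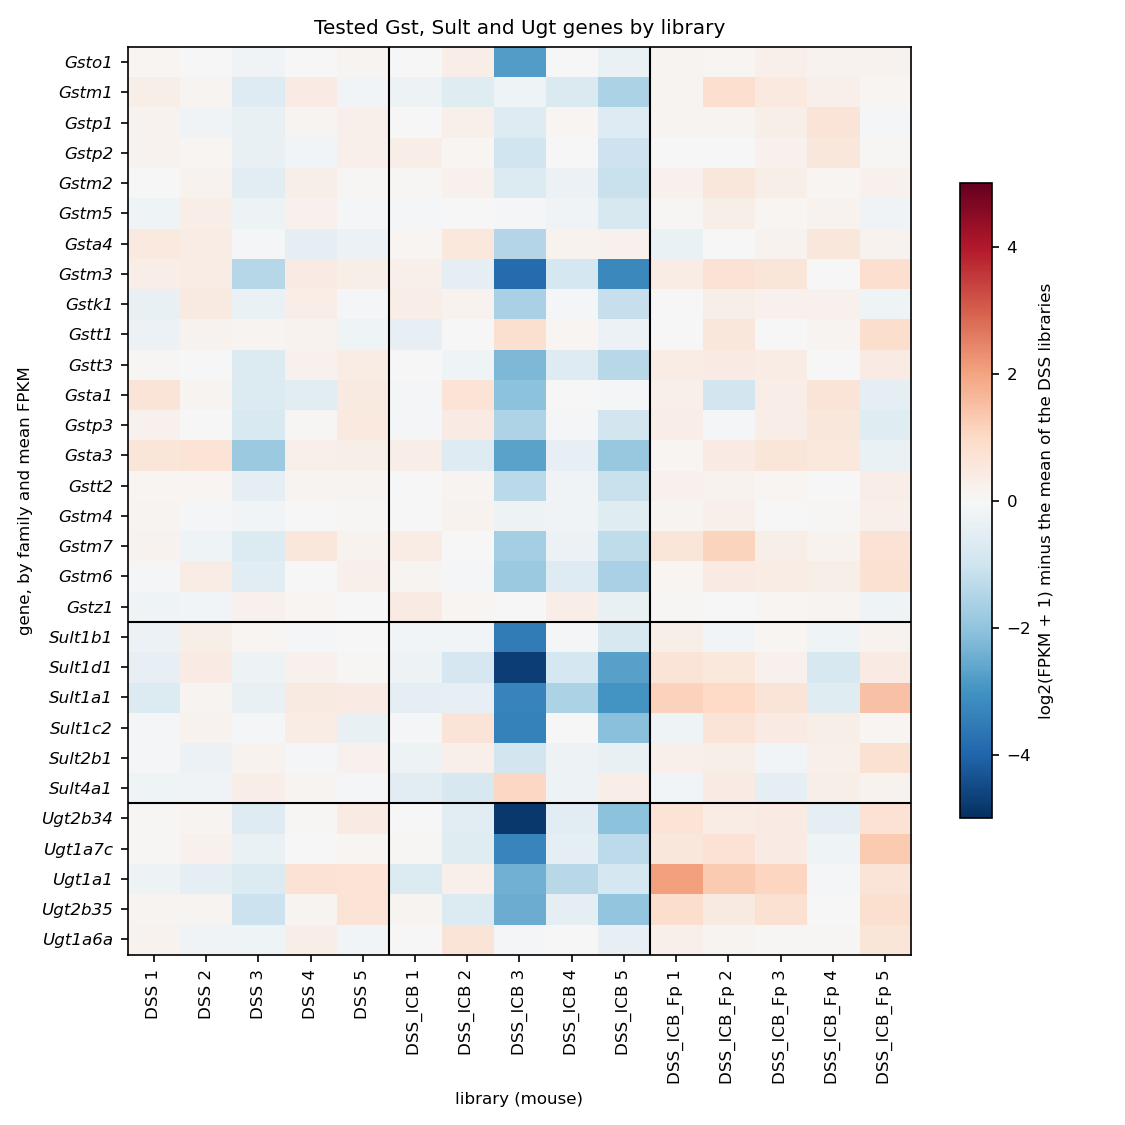
Levels of the 30 tested genes (rows, by family) in the 15 libraries (columns, by group), each as the log2(FPKM + 1) difference from the mean of the 5 DSS libraries, blue for lower and red for higher. The columns of DSS_ICB 3 and DSS_ICB 5 are blue for most rows, and DSS_ICB 3 holds the lowest value of 15 for 21 of 30 genes.

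Summed over the family, Gst genes came to 604 ± 92.5 FPKM in DSS (SD, n = 5), to 477 ± 149 with checkpoint blockade (DSS_ICB) and to 710.1 ± 56.0 with the bacterium as well (DSS_ICB_Fp). Sult genes came to 202 ± 36.8, 107 ± 64.8 and 256 ± 67.0 FPKM, and Ugt genes to 98.1 ± 21.7, 52.0 ± 34.6 and 139.9 ± 40.9 FPKM, in the same order. The spread was widest relative to the mean in DSS_ICB. There the Sult sum was 164, 158, 16.4, 132 and 61.8 FPKM in DSS_ICB 1 to 5, and the Ugt sum was 94.1, 67.7, 7.20, 63.9 and 27.2 FPKM. DSS_ICB_Fp 4 had the lowest Sult sum (147.0 FPKM) and Ugt sum (75.6 FPKM) of its group, while its Gst sum was 748.5 FPKM, the second highest.

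Gst genes were the most abundant family. The mu class lies in a cluster on chromosome 3 (chr3:107895821-108044894), and its enzymes conjugate electrophiles such as aromatic epoxides. Gstm1 (ENSMUSG00000058135, chr3:108012255-108017973, minus strand), the most abundant mu gene, had 149, 134, 77.2, 162 and 112 FPKM in DSS 1 to 5. It had 102, 80.8, 107, 74.9 and 39.9 FPKM in DSS_ICB and 134, 221, 170.2, 148 and 131 FPKM in DSS_ICB_Fp. All 5 DSS_ICB_Fp libraries were above all 5 DSS_ICB libraries, which held for this 1 gene of 30 and for 0.945% of all genes (2.46% were without overlap in the other direction). The log2 change was 1.03 ± 0.27 (SE) in DSS_ICB_Fp against DSS_ICB (limma adjusted p = 0.0851) and -0.67 ± 0.27 in DSS_ICB against DSS (limma adjusted p = 0.43). In no comparison did any other of the 30 genes separate 2 groups without overlap, where the background was 1.21% of all genes above and 0.327% below in DSS_ICB against DSS, and 0.195% each way in DSS_ICB_Fp against DSS.

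Gstm3, another mu enzyme (chr3:107963696-107969283, minus strand), had 21.1, 21.9, 5.58, 22.1 and 20.4 FPKM in DSS. It had 19.6, 11.5, 0.213, 8.58 and 0.860 FPKM in DSS_ICB, and 21.5, 27.9, 26.0, 16.4 and 30.7 FPKM in DSS_ICB_Fp. DSS 3 stood far under the other DSS libraries, and DSS_ICB 3 and DSS_ICB 5 were under 1 FPKM. Its log2 change was -1.64 ± 0.66 in DSS_ICB against DSS (limma adjusted p = 0.43) and 2.15 ± 0.66 in DSS_ICB_Fp against DSS_ICB (limma adjusted p = 0.109), the largest of the Gst genes in both.

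Gstm6 had 3.41, 4.81, 2.12, 3.47 and 4.43 FPKM in DSS, then 4.02, 3.37, 0.247, 1.89 and 0.481 FPKM in DSS_ICB, and 3.85, 4.96, 4.81, 4.62 and 6.64 FPKM in DSS_ICB_Fp. Gstm7 had 4.73, 3.40, 2.17, 6.55 and 4.72 FPKM in DSS, then 5.57, 4.13, 0.563, 3.21 and 1.10 FPKM in DSS_ICB, and 6.83, 9.93, 5.29, 4.77 and 7.5 FPKM in DSS_ICB_Fp. Gstm2 had 42.4, 47.2, 27.9, 50.5 and 43.6 FPKM in DSS, then 43.8, 48.7, 25.4, 33.4 and 18.4 FPKM in DSS_ICB, and 48.4, 61.2, 51.4, 44.9 and 47.8 FPKM in DSS_ICB_Fp. In each of these mu genes, DSS_ICB 3 and DSS_ICB 5 were the lowest of the 15 libraries, and DSS_ICB 1 and DSS_ICB 2 lay within the range of DSS. The log2 changes in DSS_ICB_Fp against DSS_ICB were 1.19 ± 0.34 for Gstm6, 1.16 ± 0.36 for Gstm7 and 0.64 ± 0.23 for Gstm2, with limma adjusted p of 0.0943, 0.109 and 0.147. The other mu genes had smaller differences in that comparison, 0.31 ± 0.13 for Gstm4 and 0.32 ± 0.17 for Gstm5.

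The theta class is on chromosome 10 (chr10:75774115-75837424). Gstt3 had 12.4, 12.1, 7.01, 13.7 and 15.7 FPKM in DSS, 11.7, 10.2, 1.70, 7.29 and 3.87 FPKM in DSS_ICB, and 15.5, 15.8, 15.6, 11.5 and 16.1 FPKM in DSS_ICB_Fp. Its DSS_ICB and DSS_ICB_Fp libraries overlapped only in that DSS_ICB 1 exceeded DSS_ICB_Fp 4. The log2 change was 1.20 ± 0.34 in DSS_ICB_Fp against DSS_ICB (limma adjusted p = 0.0977) and -0.89 ± 0.34 in DSS_ICB against DSS. Its neighbour Gstt1 had 10.4, 14.7, 14.4, 14.9 and 11.1 FPKM in DSS, 9.64, 12.6, 23.3, 13.9 and 10.4 FPKM in DSS_ICB, and 13.0, 19.7, 13.2, 14.4 and 25 FPKM in DSS_ICB_Fp. For Gstt1 the library DSS_ICB 3 was the highest of its group, and the log2 changes were 0.04 ± 0.23 and 0.29 ± 0.23.

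Gsto1, an omega-class enzyme that reduces dehydroascorbate and other substrates with glutathione (chr19:47854970-47864790, plus strand), had the highest mean level of the Gst genes. It had 146, 134, 118, 132 and 149 FPKM in DSS, 138, 171, 18.7, 138 and 107 FPKM in DSS_ICB, and 150.1, 143, 163, 152 and 152 FPKM in DSS_ICB_Fp. DSS_ICB 3 stood apart from the other 14 libraries, and the log2 changes of -0.55 ± 0.43 and 0.71 ± 0.43 turned on it: without that library the change in DSS_ICB against DSS was 0.01.

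The pi class conjugates a wide range of electrophiles and lies on chromosome 19 (chr19:4035407-4059569). Gstp1 had 111, 85.2, 75, 105 and 114 FPKM in DSS, 99.6, 116, 60.9, 103 and 61.2 FPKM in DSS_ICB, and 107, 106, 120.2, 154 and 93.8 FPKM in DSS_ICB_Fp. Gstp2 had 57.1, 53.2, 38.2, 44.7 and 59.2 FPKM in DSS, 62.7, 53.9, 24.3, 48.7 and 23.6 FPKM in DSS_ICB, and 50.8, 50.7, 57.5, 73.6 and 51.5 FPKM in DSS_ICB_Fp. Both were lowest in DSS_ICB 3 and DSS_ICB 5 and highest in DSS_ICB_Fp 4. They share the sequence described above. Log2 changes in DSS_ICB_Fp against DSS_ICB were 0.43 ± 0.21 for Gstp1 and 0.50 ± 0.26 for Gstp2, and 0.56 ± 0.34 for Gstp3, the copy with no shared windows.

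The remaining tested Gst genes had lower or less variable levels. In the alpha class, Gsta3 had group means of 7.19 ± 3.70, 3.29 ± 3.03 and 7.63 ± 2.12 FPKM (DSS, DSS_ICB, DSS_ICB_Fp) and a log2 change of 1.32 ± 0.54 in DSS_ICB_Fp against DSS_ICB. Gsta4, which conjugates aldehydes from lipid peroxidation, had log2 changes of -0.09 ± 0.32 and 0.20 ± 0.32 in the first 2 comparisons, and Gsta1, nearly all of whose sequence is shared with other gene models, had -0.31 ± 0.45 and 0.28 ± 0.45. Gstk1, found in mitochondria and peroxisomes, had -0.48 ± 0.33 and 0.57 ± 0.33, and Gstt2 had -0.49 ± 0.25 and 0.66 ± 0.25. Gstz1, an enzyme of tyrosine breakdown, went the other way in sign, with 0.10 ± 0.14 and -0.08 ± 0.14. Gsta2, Gsto2 and Gstt4 stayed under the filter, with at most 0.340 FPKM in any library.

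**Figure D2:**
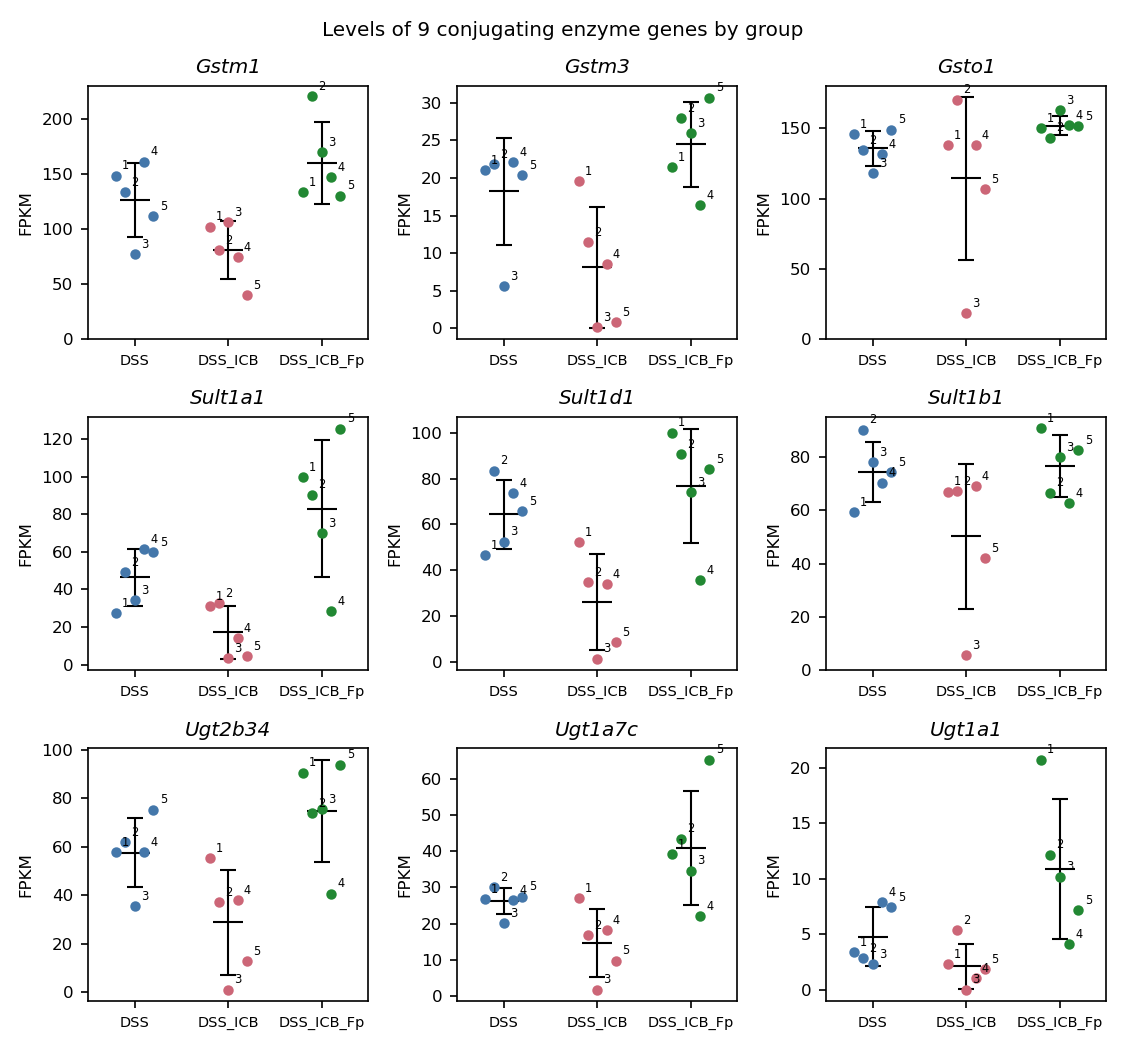
FPKM of 9 genes in each library, by group, with the number of the mouse beside each point and a bar for the group mean ± SD (n = 5), which for Ugt1a1 includes the 0 listed in DSS_ICB 3. DSS_ICB 3 and DSS_ICB 5 hold the lowest points in most panels, and Gstm1 is the gene whose DSS_ICB_Fp points all lie above its DSS_ICB points.

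Sult genes were fewer and were led by Sult1b1, Sult1d1 and Sult1a1, enzymes that sulfate small phenols, thyroid hormones and catechols. Sult1a1, the phenol sulfotransferase (ENSMUSG00000030711, chr7:126672865-126676432, minus strand), had 27.5, 49.4, 34.1, 61.6 and 59.9 FPKM in DSS. It had 31.2, 32.8, 3.47, 14.3 and 4.69 FPKM in DSS_ICB and 99.9, 90.5, 70.0, 28.5 and 126 FPKM in DSS_ICB_Fp. Apart from DSS_ICB_Fp 4, the DSS_ICB_Fp libraries lay above every library of the other groups. The log2 change was 2.5 ± 0.55 in DSS_ICB_Fp against DSS_ICB, with the lowest limma adjusted p of the 30 genes (0.0712), and -1.77 ± 0.55 in DSS_ICB against DSS (limma adjusted p = 0.418).

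Sult1d1, which sulfates catecholamines in the mouse (ENSMUSG00000029273, chr5:87554645-87569027, minus strand), had 46.7, 83.5, 52.5, 73.6 and 65.8 FPKM in DSS. It had 52.2, 34.8, 1.45, 33.8 and 8.63 FPKM in DSS_ICB and 100.1, 90.6, 74.0, 35.7 and 84.3 FPKM in DSS_ICB_Fp. DSS_ICB 1 exceeded the lowest DSS library, and otherwise DSS_ICB lay under DSS. The log2 changes were -1.88 ± 0.65 (limma adjusted p = 0.418), the largest decrease in value of the 30 genes in that comparison, and 2.09 ± 0.65 (limma adjusted p = 0.112).

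Sult1b1, next to Sult1d1 on chromosome 5 (chr5:87513339-87538195, minus strand), had 59.3, 90.2, 78.2, 70.3 and 74.3 FPKM in DSS. It had 67.0, 67.2, 5.54, 69.1 and 42.0 FPKM in DSS_ICB and 90.7, 66.6, 79.9, 62.7 and 82.5 FPKM in DSS_ICB_Fp. Only DSS_ICB 3 and DSS_ICB 5 lay under the range of DSS, and the log2 changes were -0.94 ± 0.50 and 0.97 ± 0.50. Sult1c2 had 11.2, 13.3, 10.8, 15.7 and 8.84 FPKM in DSS, 10.9, 18.9, 0.212, 11.8 and 2.01 FPKM in DSS_ICB, and 10.1, 19.0, 16.1, 14.6 and 12.7 FPKM in DSS_ICB_Fp, with the same libraries low. Its log2 changes were -0.99 ± 0.58 and 1.24 ± 0.58. Without DSS_ICB 3 the 2 log2 changes were -0.29 and 0.33 for Sult1b1 and -0.38 and 0.64 for Sult1c2.

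Sult2b1, which sulfates cholesterol and related sterols, was low, with 2.29, 1.75, 2.90, 2.31 and 2.99 FPKM in DSS, 1.89, 3.03, 0.812, 1.85 and 1.68 FPKM in DSS_ICB, and 3.04, 3.17, 2.13, 3.08 and 4.74 FPKM in DSS_ICB_Fp. Its log2 change in DSS_ICB_Fp against DSS_ICB was 0.59 ± 0.20 (limma adjusted p = 0.128). Sult4a1, known mainly from the brain, ranged from 0.465 to 4.30 FPKM, and its highest value was in DSS_ICB 3, where each of the other 5 tested Sult genes had its lowest. The 15 Sult genes under the filter, among them the liver and steroid enzymes of the Sult2a group and the oestrogen enzyme Sult1e1, had at most 0.474 FPKM, and 10 were listed at 0 in every library.

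With the settings above, Ugt genes had the median furthest from 0 of the 3 families in each comparison, but the order depended on the settings. In DSS_ICB against DSS it did not hold without DSS 5 (Sult -1.01, Ugt -0.91) or with a pseudocount of 10 (Sult -0.51, Ugt -0.29). In that comparison it also failed with a filter at 5 FPKM (Sult -1.38, Ugt -1.11) or no filter (Gst -0.36, Ugt -0.041). Without a filter it did not hold in DSS_ICB_Fp against DSS_ICB (Gst 0.56, Ugt 0.058) or in DSS_ICB_Fp against DSS (Gst 0.17, Ugt 0.078) either. Ugt2b34 (ENSMUSG00000029260, chr5:86889767-86906937, minus strand) was the most abundant, with 57.7, 62.0, 35.4, 57.8 and 75.4 FPKM in DSS. It had 55.2, 37.3, 1.02, 37.9 and 12.7 FPKM in DSS_ICB and 90.7, 73.8, 75.7, 40.7 and 94.0 FPKM in DSS_ICB_Fp. DSS_ICB_Fp 4 was the only library of its group under any DSS_ICB library. The log2 changes were -1.61 ± 0.68 (limma adjusted p = 0.43) and 1.96 ± 0.68 (limma adjusted p = 0.133). Its neighbour Ugt2b35 (chr5:87000860-87013275, plus strand) had 5.02, 5.06, 1.60, 5.13 and 7.98 FPKM in DSS, 5.14, 2.5, 0, 3.09 and 0.404 FPKM in DSS_ICB, and 9.18, 6.61, 8.48, 4.53 and 8.54 FPKM in DSS_ICB_Fp. It was listed at 0 in DSS_ICB 3, and its log2 changes were -1.08 ± 0.44 (limma adjusted p = 0.43) and 1.66 ± 0.44 (limma adjusted p = 0.0873).

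The Ugt1a genes share a locus on chromosome 1. Ugt1a1, the bilirubin-conjugating enzyme (ENSMUSG00000089960, chr1:88211959-88218997, plus strand), had 3.40, 2.84, 2.32, 7.87 and 7.43 FPKM in DSS. It had 2.28, 5.33, 0, 1 and 1.87 FPKM in DSS_ICB and 20.8, 12.2, 10.2, 4.08 and 7.20 FPKM in DSS_ICB_Fp. DSS_ICB_Fp 1, 2 and 3 lay above every library of the other groups. The log2 changes were -1.03 ± 0.47 in DSS_ICB against DSS (limma adjusted p = 0.435), 2.03 ± 0.47 in DSS_ICB_Fp against DSS_ICB (limma adjusted p = 0.0716) and 1 ± 0.47 in DSS_ICB_Fp against DSS, the largest of the 30 genes in that last comparison (limma adjusted p = 0.9997).

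Ugt1a7c (chr1:88095062-88220002, plus strand), the most abundant Ugt1a gene, had 26.7, 30.1, 20.1, 26.4 and 27.5 FPKM in DSS. It had 26.9, 16.7, 1.75, 18.1 and 9.77 FPKM in DSS_ICB and 39.3, 43.4, 34.6, 22.0 and 65.3 FPKM in DSS_ICB_Fp. DSS_ICB 1 alone of its group lay within the range of DSS. The log2 changes were -1.13 ± 0.48 (limma adjusted p = 0.43) and 1.69 ± 0.48 (limma adjusted p = 0.0943). Ugt1a6a, a phenol enzyme all of whose windows also occur in Ugt1a7c, had 2.80, 2, 1.91, 3.31 and 2.10 FPKM in DSS, 2.37, 4.27, 2.12, 2.48 and 1.56 FPKM in DSS_ICB, and 3.03, 2.76, 2.54, 2.55 and 4.10 FPKM in DSS_ICB_Fp. Its groups overlapped widely, with log2 changes of 0.03 ± 0.18 and 0.20 ± 0.18.

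Among the 14 Ugt genes under the filter, the highest value was 1.55 FPKM, of Ugt1a6b. Ugt1a9 had 0.631, 0.564, 0.513, 0.641 and 0.719 FPKM in DSS and 0.753, 0.912, 1.11, 0.656 and 0.952 FPKM in DSS_ICB_Fp. In DSS_ICB it had 0.637 FPKM in DSS_ICB 1 and was listed at 0 in the other 4 libraries. It was chosen after its values were seen and was not tested, and since its last exons are shared with the other Ugt1a genes, a listed 0 may be a failed estimate.

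**Figure D3:**
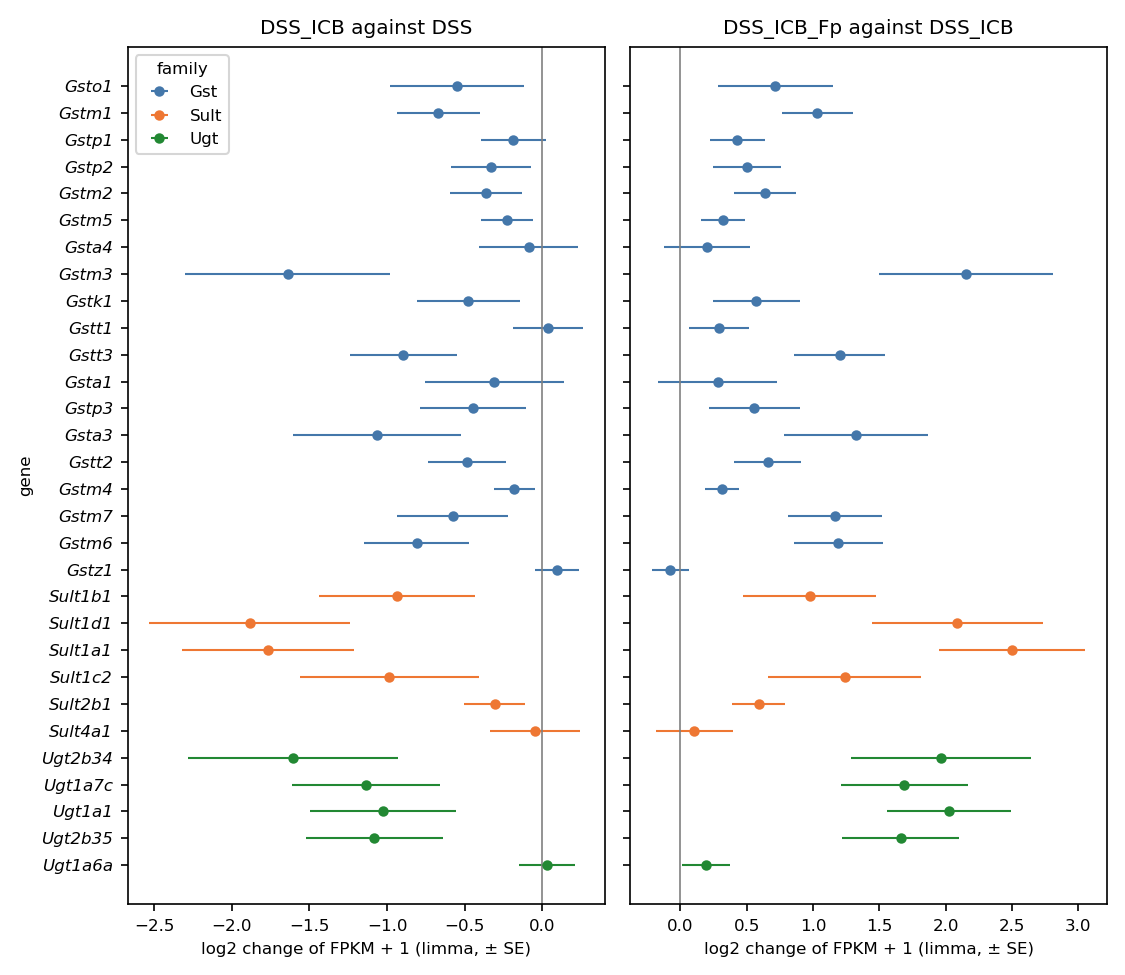
Log2 change (points) with its standard error (bars) for each of the 30 tested genes, by family, in DSS_ICB against DSS and in DSS_ICB_Fp against DSS_ICB. Points lie below 0 for 27 genes in the first comparison and above 0 for 29 in the other, and none passed an adjusted p of 0.05.

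The family medians moved toward 0 in DSS_ICB against DSS and in DSS_ICB_Fp against DSS_ICB when DSS_ICB 3, alone or with DSS_ICB 5, was left out. Single genes did not all follow. For Gstm1, DSS_ICB 3 was the highest library of its group (107 FPKM). Without DSS_ICB 3 alone, the log2 change in DSS_ICB against DSS was -1.09 for Gstm3, -1.18 for Sult1d1, -0.80 for Ugt2b34 and -0.59 for Ugt1a7c, and in DSS_ICB_Fp against DSS_ICB it was 1.60, 1.38, 1.16 and 1.15. Without DSS_ICB 3 and DSS_ICB 5, 18 of 30 log2 changes were below 0 in DSS_ICB against DSS. The family medians were 0.0013 for Gst, -0.33 for Sult and -0.35 for Ugt genes, beside 0.05 for all genes. In that comparison 3 genes were then lower at an unadjusted p under 0.05 (Gstm1, Sult1d1 and Sult4a1; 1.29% of all genes) and 1 was higher (Gstz1; 6.42% of all genes). In DSS_ICB_Fp against DSS_ICB, 26 of 30 log2 changes remained above 0, with family medians of 0.17, 0.48 and 0.90, beside -0.06 for all genes. At an unadjusted p under 0.05, 11 genes were higher: Gstm1, Gstm3, Gstm6, Gstt3, Sult1a1, Sult1d1, Sult4a1, Ugt1a1, Ugt1a7c, Ugt2b34 and Ugt2b35, against 3.65% of all genes, and 0 were lower, against 14.3%. Of these 11, only Sult4a1 was not among the 17 genes that were higher with all libraries. The number of genes with an adjusted p under 0.05 was still 0 in both comparisons, beside 0.0139% of all genes higher in the first and 0.146% lower in the other.

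Other single libraries decided whether any gene passed. Without DSS_ICB 1, 10 of the 30 genes passed in DSS_ICB_Fp against DSS_ICB: Gstm1, Gstm3, Gstm6, Gstm7, Gstt3, Sult1a1, Sult1d1, Ugt1a1, Ugt1a7c and Ugt2b35. In that fit 1.58% of all genes passed as higher and 2.57% as lower, and 0 of the 30 passed as lower. Without DSS_ICB 2 (0.222% of all genes higher), and likewise without DSS_ICB_Fp 4 (0.855%), Sult1a1 and Ugt1a1 passed. Leaving out any other single library gave 0.

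Summed levels of cell type markers differed between the same groups and libraries. The summed level of 12 absorptive colonocyte markers ranged from 6206 to 7303 FPKM in DSS (median 6795), from 856 to 7623 in DSS_ICB (median 4886) and from 6578 to 7985 in DSS_ICB_Fp (median 6797), with the lowest value in DSS_ICB 3. Krt8 and Krt19 weighed most in this sum, with means of 1986 and 1391 FPKM in DSS. Slc26a3 had means of 52.1, 17.1 and 91.4 FPKM in DSS, DSS_ICB and DSS_ICB_Fp. Its log2 changes were -2.24 ± 0.74 in DSS_ICB against DSS and 2.82 ± 0.74 in DSS_ICB_Fp against DSS_ICB. Both were further from 0 than in any of the 30 conjugating enzyme genes. In DSS_ICB_Fp against DSS, 8 of the 12 markers were above 0 and 4 below (median 0.07). Of the 12, 0 passed in any comparison, 3 were lower in DSS_ICB than in DSS and 4 higher in DSS_ICB_Fp than in DSS_ICB at an unadjusted p under 0.05, and 12 of 12 had a log2 change below 0 in DSS_ICB against DSS (median -0.75). The 7 goblet cell markers summed to 1902 to 4220, 293 to 4960 and 3256 to 4979 FPKM in the same order of groups. In DSS_ICB 3, smooth muscle markers (6 genes) summed to 14680 FPKM, against 1066 to 4665 in the other libraries. The 6 neutrophil markers summed to 19.0 to 56.2 FPKM in DSS, 122.8 to 1991 in DSS_ICB and 1.78 to 30.6 in DSS_ICB_Fp, and 4 of the 6 fell in DSS_ICB_Fp against DSS_ICB by the limma test. The 6 fibroblast markers summed to 285 to 416, 388 to 724 and 224 to 426 FPKM, and the 5 macrophage markers to 304 to 481, 157 to 846 and 244 to 299 FPKM. The 5 fat markers, of which 3 passed the filter, summed to 7.07 to 22.6, 2.36 to 16 and 6.87 to 55.6 FPKM. No marker in any of these lists was at 0 in every library, and the part of cell composition in the differences of the conjugating enzymes was not tested.

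Tissues rich in these enzymes were also checked. Of 8 small intestine markers 4 passed the filter, and the list summed to 50.8 to 83.0 FPKM in DSS, 1.99 to 52.5 in DSS_ICB and 55.3 to 118.5 in DSS_ICB_Fp, with its lowest values in DSS_ICB 3 and DSS_ICB 5. All 4 had log2 changes below 0 in DSS_ICB against DSS and above 0 in DSS_ICB_Fp against DSS_ICB, and 0 passed (3 lower, then 4 higher, at an unadjusted p under 0.05). These 4 were Mep1a, Fabp6, Fabp2 and Apob. Group means in DSS, DSS_ICB and DSS_ICB_Fp were 39.6, 19.3 and 51.5 FPKM for Mep1a and 18.5, 6.19 and 22.5 for Fabp6. They were 6.85, 5.74 and 9.14 FPKM for Fabp2 and 1.57, 0.822 and 2.36 for Apob. The others on the list, Sis, Lct, Alpi and Apoa4, stayed under the filter, with group means of at most 0.202 FPKM. Of 6 hepatocyte markers only Ttr, which is not specific to liver, passed the filter. Of the colonocyte list, Slc26a3, Aqp8 and Selenbp1, a chloride exchanger, a water channel and a selenium-binding protein of surface colonocytes, had 0.296, 2.89 and 3.71 FPKM in DSS_ICB 3. In the other 14 libraries the lowest values of these genes were 4.84, 30.1 and 15.1 FPKM. The rest of the colonocyte list had 16.8 (Vil1) to 208 FPKM (Krt19) in DSS_ICB 3, for each gene below the other libraries. Colonocyte markers were thus low in DSS_ICB 3 but most were still present. The part of these markers in the result was not tested.

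When each library was scaled to 5 epithelial genes (Cdh1, Epcam, Krt8, Krt19 and Vil1), an alternative chosen after seeing the data, the median of all genes moved to 0.66 in DSS_ICB against DSS and to -0.70 in DSS_ICB_Fp against DSS_ICB. Values were divided by a factor of 0.148 in DSS_ICB 3 and of 0.883 (DSS_ICB 4) to 1.34 (DSS 5) in the other libraries. This scaling therefore raised DSS_ICB 3 far more than any other library. It was not run without DSS_ICB 3, so how far its results rest on that library was not tested. The family medians were then 0.20 for Gst, -0.43 for Sult and -0.88 for Ugt genes in DSS_ICB against DSS, and -0.12, 0.55 and 1.36 in DSS_ICB_Fp against DSS_ICB. The Gst median changed sign together with this shift of all genes, and lay below the median of all genes in DSS_ICB against DSS and above it in DSS_ICB_Fp against DSS_ICB with and without the scaling. Under this scaling 0 of the 30 genes passed in any comparison (0.0278% of all genes, all lower, in DSS_ICB_Fp against DSS_ICB). At an unadjusted p under 0.05, 5 were lower in DSS_ICB than in DSS (Gstm3, Sult1a1, Sult1d1, Ugt2b34 and Ugt2b35; 0.514% of all genes), and 9 were higher in DSS_ICB_Fp than in DSS_ICB (Gsta3, Gstm3, Gstm6, Sult1a1, Sult1d1, Ugt1a1, Ugt1a7c, Ugt2b34 and Ugt2b35; 1.4% of all genes).

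**Figure D4:**
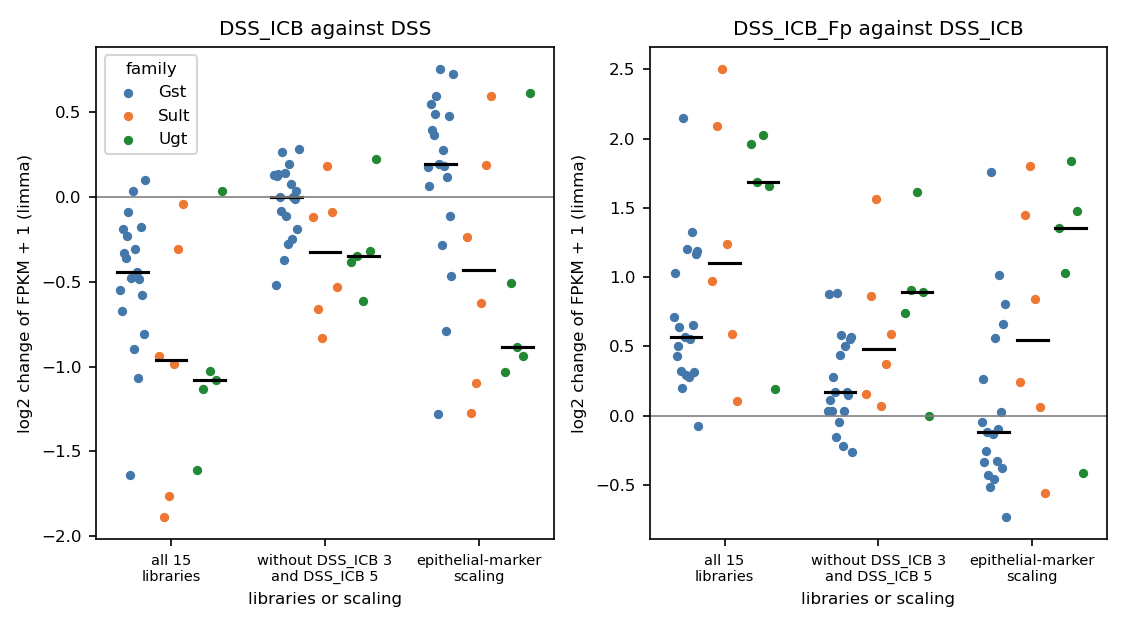
Log2 change of each tested gene (points, by family) with the family median (bar), for all 15 libraries, without DSS_ICB 3 and DSS_ICB 5, and with scaling to 5 epithelial genes, in DSS_ICB against DSS and in DSS_ICB_Fp against DSS_ICB. The Ugt medians stay below 0 in the first comparison (-1.08, -0.35 and -0.88) and above 0 in the other (1.69, 0.90 and 1.36). With epithelial scaling the median of all genes, not drawn, is 0.66 and -0.70. That scaling divides DSS_ICB 3 by 0.148 and the other libraries by 0.883 to 1.34.

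Other genes of the pathway were read from lists, and 0 of the genes on these lists passed the limma test. Of 10 tested genes for UDP-glucuronate and sulfate donors, 9 had log2 changes below 0 in DSS_ICB against DSS (median -0.38) and 9 above 0 in DSS_ICB_Fp against DSS_ICB (median 0.43). At an unadjusted p under 0.05, 3 were lower in the first, and 4 were higher and 1 lower in the other. Ugdh, which makes UDP-glucuronate, had 23.6 ± 5.17, 14.3 ± 3.94 and 30.6 ± 9.98 FPKM in DSS, DSS_ICB and DSS_ICB_Fp (SD, n = 5), and a log2 change of 1.02 ± 0.24 in the latter comparison (limma adjusted p = 0.0726). Papss1, which makes the sulfate donor PAPS, had 48.9 ± 8.94, 27.4 ± 15.1 and 55.5 ± 8.54 FPKM and a log2 change of 1.16 ± 0.31 (limma adjusted p = 0.0904). The 9 tested genes of glutathione supply had medians of -0.04 and 0.07, and 1 of them was past an unadjusted p of 0.05 in each of the first 2 comparisons. This was Ggt6, a gamma-glutamyltransferase family member, with log2 changes of -0.90 ± 0.40 and 1.25 ± 0.40. Of the amino acid carriers, Slc3a2 had 0.32 ± 0.17 in DSS_ICB against DSS and -0.10 ± 0.17 in DSS_ICB_Fp against DSS_ICB. Slc1a5 had -0.06 ± 0.18 and 0.32 ± 0.18 in the same order.

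The 6 tested transporters on the list drawn up for conjugate export had medians of -0.23 and 0.21 in the first 2 comparisons. In DSS_ICB_Fp against DSS_ICB 3 were higher and 2 lower at an unadjusted p under 0.05, and in DSS_ICB against DSS 0 were. Abcb1a (P-glycoprotein) had 28.7 ± 4.10, 16.9 ± 8.08 and 43.3 ± 25.8 FPKM and a log2 change of 1.32 ± 0.46 in DSS_ICB_Fp against DSS_ICB, while Abcc1 had -0.34 ± 0.14. Abcg2, the breast cancer resistance protein, had -0.40 ± 0.21 in DSS_ICB against DSS. The 8 tested transferases outside the rule had medians of -0.25 and 0.26. The microsomal Mgst2, the 1 gene of these that was higher in DSS_ICB_Fp than in DSS_ICB at an unadjusted p under 0.05, had 0.97 ± 0.42 and Mgst3 0.70 ± 0.33 in DSS_ICB_Fp against DSS_ICB, and Nat2 had -0.34 ± 0.19 in DSS_ICB against DSS. The 4 tested genes of deconjugation had medians of 0.09 and -0.05, with 0 past an unadjusted p of 0.05. Arsa, a lysosomal sulfatase, had 0.18 ± 0.14 in DSS_ICB against DSS. Gusb, the lysosomal glucuronidase, had -0.24 ± 0.22 and the sulfatase activator Sumf1 -0.10 ± 0.09 in DSS_ICB_Fp against DSS_ICB.

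The 12 tested regulators of conjugating enzymes had medians of -0.17 and 0.28. At an unadjusted p under 0.05, 1 was higher and 1 lower in DSS_ICB against DSS, and 3 were higher and 2 lower in DSS_ICB_Fp against DSS_ICB. Vdr, the vitamin D receptor, had 41.2 ± 8.21, 21.4 ± 16.8 and 58.5 ± 20.7 FPKM in the 3 groups and log2 changes of -1.50 ± 0.63 and 1.92 ± 0.63. Its lowest values were 1.15 FPKM in DSS_ICB 3 and 7.83 in DSS_ICB 5. Tiparp, a target of the aryl hydrocarbon receptor, had the opposite signs, 0.54 ± 0.19 and -0.51 ± 0.19. Of 7 targets of that receptor, Tiparp and Nqo1 were the 2 tested, and the medians over both were -0.05 and 0.04.

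The 12 tested targets of NRF2, the regulator of the antioxidant response, had medians of -0.12 and -0.08, with Hmox1 alone past an unadjusted p of 0.05 in the first 2 comparisons. Nqo1, a quinone reductase, had -0.63 ± 0.38 and 0.60 ± 0.38. Hmox1, the haem oxygenase also made by macrophages, had 6.41 ± 1.05, 14.7 ± 8.91 and 4.14 ± 1.62 FPKM and log2 changes of 0.92 ± 0.32 and -1.49 ± 0.32 (limma adjusted p = 0.418 and 0.0706). Its signs were opposite to those of the Gst medians.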

How the data were processed

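RNA of colon tissue was sequenced from 15 mice, 5 in each of 3 treatment groups, and groups were taken from the treatment labels. Per the submitters' processing notes, the authors used FastQC, STAR 2.5, the build mm10, Cuffnorm and DESeq. The deposited values are FPKM as the authors computed them, read as such from the tool named and from the values. No source used here says if libraries were scaled further against each other. Depth was estimated from the value of a single fragment in single-transcript genes of 1000 to 6000 bases, and would be off if they were. Whole reads were not recovered, so no count test was run. Of 55335 Ensembl IDs, 55154 matched GENCODE M21 (GRCm38), which gave symbols, positions and coding sequence. Promoters came from RefSeq (GRCm38.p6), where 27 of the 30 tested genes matched, and those of Gsta4, Gstt2 and Sult4a1 were not used here.

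Genes with at least 1 FPKM in at least 5 libraries (14385) were fitted with limma 3.58.1 in R 4.3.3, with trend and robust settings, on log2(FPKM + 1), which understates the fold of low genes. All 15 libraries were fitted at once with 1 mean per group and 3 contrasts, two-sided, with Benjamini-Hochberg adjustment over all genes tested. The p-values measure the spread between mice of 1 experiment. The fit was tested on simulated data with known changes. These data had 1 spread per gene shared by all groups, so that test does not cover the wider spread of DSS_ICB.

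Named genes were, per family, any that passed, the 3 with the smallest p per comparison and the 5 with the highest mean FPKM. Each list of other pathway genes gave the 2 with the smallest p in each of the first 2 comparisons. For the list of other transferases, a gene that this rule names is not reported here. Sult4a1, Ugt1a9, Ugt1a6b and the remaining tested genes were named to account for every tested member or after their values were seen, as were Vdr values by library. Members and lists (17, of which 9 hold cell type markers) were chosen with earlier results of these data known. The alternatives tried were scaling by upper quartile or by median of ratios, other pseudocounts (0.1, 10), other filters (none, 5 FPKM), the 2 compared groups alone, each library left out, and DSS_ICB 3 and DSS_ICB 5 both left out. Scaling to 5 epithelial genes was chosen after seeing the data.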

Additional observations from a re-analysis of the deposited data

Results flagged for a closer look

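Within a group of 5, a single library stood apart from the other 4 in 5 of the 60 sets examined (20 named genes in 3 groups), where Dixon's critical value is 0.71 and chance gives about 1 in 20. DSS_ICB 3 was low for Gsto1, with 18.7 FPKM against 106.8 to 170.6 in the rest of its group, and for Sult1b1, with 5.54 FPKM against 42.0 to 69.1. DSS 3 was low for Gstm3, with 5.58 FPKM against 20.4 to 22.1. DSS_ICB_Fp 4 was low for Gstt3, with 11.5 FPKM against 15.5 to 16.1, and for Ugt2b34, with 40.7 FPKM against 73.8 to 94.0.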

How the results depend on the processing

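No paired analysis was possible because the labels give the mice no number or cage that is shared between groups. The count of genes that passed was 0 in the main analysis of each comparison and stayed 0 under the alternatives run, except in DSS_ICB_Fp against DSS_ICB, where leaving out 1 library gave 0 to 10 (10 without DSS_ICB 1, 2 without DSS_ICB 2 and 2 without DSS_ICB_Fp 4). The cause was not tested.

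The median log2 change of Gst genes in DSS_ICB against DSS (-0.44) was 0.0013 without DSS_ICB 3 and DSS_ICB 5 and 0.20 with epithelial scaling, and in DSS_ICB_Fp against DSS_ICB (0.57) it was -0.12 with epithelial scaling. The Ugt median in DSS_ICB against DSS (-1.08) was -1.79 and -0.29 with pseudocounts of 0.1 and 10, -0.041 with no filter and -0.35 without both libraries. In DSS_ICB_Fp against DSS_ICB the Ugt median (1.69) was 0.75 with a pseudocount of 10, 0.058 with no filter and 0.90 without both libraries, and the Sult median (1.11) was 0.11 with no filter. With no filter, genes near 0 FPKM enter the medians. Leaving out 1 library gave medians in DSS_ICB against DSS of -0.64 to -0.19 (Gst), -1.26 to -0.35 (Sult) and -1.39 to -0.68 (Ugt), in DSS_ICB_Fp against DSS_ICB of 0.36 to 0.77, 0.54 to 1.41 and 1.16 to 1.98, and in DSS_ICB_Fp against DSS of 0.09 to 0.23, 0.14 to 0.26 and 0.31 to 0.72.

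For the 20 named genes, 1390 of 1431 values under an alternative kept their sign and their side of the threshold, 14 passed it when 1 library was left out, and 27 reversed. In DSS_ICB against DSS, epithelial scaling gave 0.064 for Gstm1, 0.36 for Gstm2, 0.18 for Gsto1, 0.54 for Gstp1, 0.39 for Gstp2 and 0.19 for Sult2b1. Without both libraries, that comparison gave 0.033 for Gstm7, 0.13 for Gsto1, 0.12 for Gstp1, 0.14 for Gstp2, -0.11 for Gstt1 and 0.18 for Sult1c2. In DSS_ICB_Fp against DSS_ICB, epithelial scaling gave -0.12 for Gstm2, -0.041 for Gsto1, -0.34 for Gstp1, -0.26 for Gstp2, -0.45 for Gstt1 and -0.41 for Ugt1a6a. Leaving out 1 library moved DSS_ICB against DSS between -0.77 and 0.012 for Gsto1, between -0.16 and 0.14 for Gstt1 and between -0.12 and 0.14 for Ugt1a6a, and DSS_ICB_Fp against DSS between -0.040 and 0.11 for Sult1b1. Depth limits the genes listed at 0, and intervals for single values need counts, which FPKM do not give.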
